A study of Mus musculus with 4 samples.

Results

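Cilium genes were followed in septal brain tissue of TCRb-/- mice, in which the T cell receptor has no beta chain, and of wild-type (WT) mice. The 95 genes, of 15409 listed, were taken by symbol: Dnah, Dnaic, Dnaaf, Dnali, Cfap, Rsph, Tekt and Spag genes, Ift and Bbs genes with a number, and Foxj1, Ccdc153, Tmem212 and Rfx3. They were divided by symbol into 67 motile cilium genes, 22 cilium transport genes (Ift and Bbs) and 6 in neither class (Rfx3, Spag4, Spag5, Spag7, Spag8 and Spag9). The study has 4 RNA-seq libraries, 2 TCRb-/- and 2 WT, and each library is a pool of septal tissue from 4 to 5 mice. All mice of both genotypes had been restrained for 30 min on each of 3 days, and the tissue was taken 1.5 h after the last restraint. The labels name 2 experiments, and each holds 1 library per genotype, so TCRb-/- replicate 1 pairs with WT replicate 1 and TCRb-/- replicate 2 with WT replicate 2. The labels give no age, sex or strain, and a pool does not show how individual mice differ.

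Motile cilia line the ventricles on ependymal cells, where their beating moves cerebrospinal fluid. Their axoneme carries dynein arms, radial spokes and a central apparatus, and Foxj1 and the RFX factors switch on its genes. Most neurons and astrocytes instead carry a single primary cilium, which does not beat and serves signalling. Both kinds of cilium are built by intraflagellar transport (IFT), in which the IFT-B complex carries cargo towards the tip and the IFT-A complex is needed for the return, while the BBSome moves membrane proteins. IFT and BBSome genes are therefore shared by nearly all ciliated cells, whereas axonemal genes mark cells with beating cilia.

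The deposited values are log2 CPM, reads scaled to a common library total, and levels below are given as CPM unless stated. Library totals were between 19988137 and 26210790 reads. Trbc2, a constant region gene of the beta chain, had 169 and 86 reads (6.45 and 3.85 CPM) in the WT libraries. It had 0 reads in each TCRb-/- library, and a count of 0 allows up to 3 reads (0.122 and 0.15 CPM there, for counting error only). Of 14 septum markers 13 were listed, among them Zic1, Trpc4, Sst and Nts, and all 13 passed the filter on low values. The first principal component held 76.7% of the variance and separated the experiments. Striatum, thalamus and cortex markers differed widely between libraries, and their values stand beside the comparison of experiments.

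Compared per length, the transport genes stood above most of the motile genes. The median level was 11.6 CPM per kb of exonic sequence over the 22 transport genes, 1.27 CPM per kb over the 67 motile genes and 5.63 CPM per kb over all genes. The motile genes spanned 0.0268 to 91.5 CPM per kb and the transport genes 1.43 to 62.0. The lowest levels belonged to the dynein heavy chains (Dnah), the motor subunits of the axonemal arms. Their 15 genes had a median of 0.0776 CPM per kb, and Dnah1 was the highest of them at 1.77. The median exonic length was 13696 bases in the heavy chains and 3022 over the motile genes. Whether read coverage per kb depends on length was not tested. Foxj1, the forkhead factor that drives motile ciliogenesis, stood at 9.69 CPM per kb, and the ependymal markers Ccdc153 and Tmem212 at 35.1 and 13.3.

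**Figure D1:**
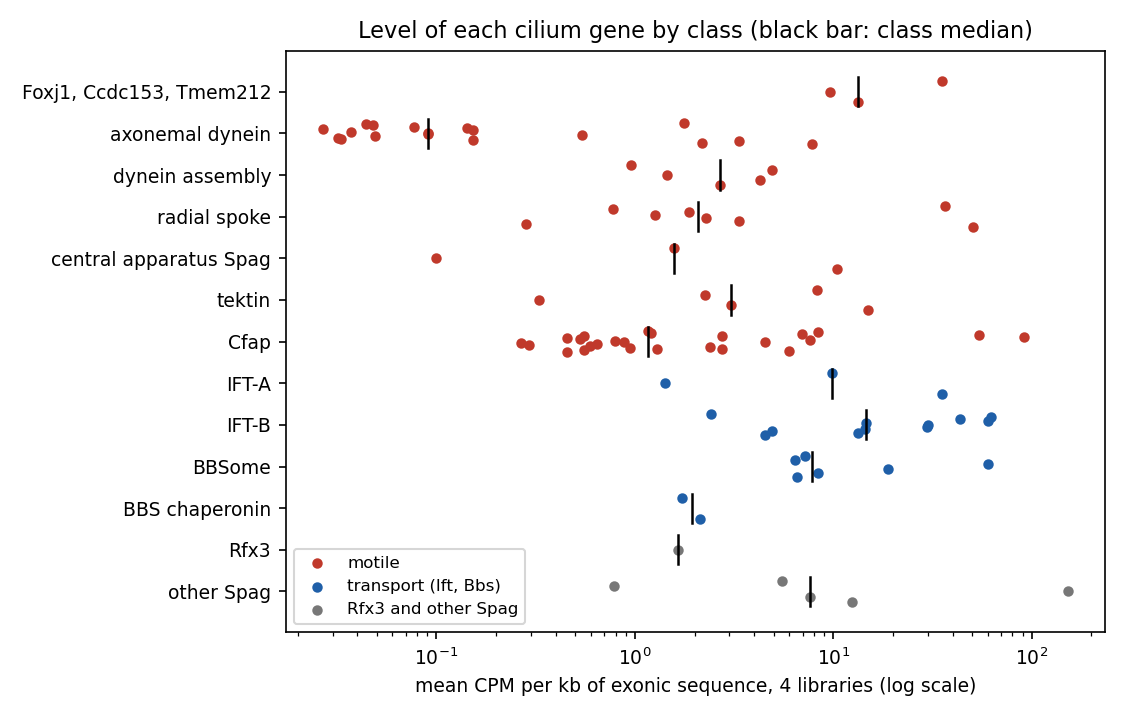
Mean level of each of the 95 genes over the 4 libraries, in CPM per kb of exonic sequence on a log axis, by class. Points are genes and black bars are class medians. The axonemal dyneins reach down to 0.0268 CPM per kb, while the IFT-B genes centre on 14.6.

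Structural genes differed in level by class. Rsph9 and Rsph1, subunits of the radial spoke head, stood at 50.5 and 36.7 CPM per kb, against a radial spoke median of 2.08. The 2 highest motile genes were Cfap36 at 91.5 and Cfap20 at 54.3 CPM per kb. Cfap20 belongs to the doublet microtubules of cilia and is also found in cells without motile cilia. Among the transport genes Ift20, Bbs4, Ift27 and Ift22 led, with 62.0, 60.5, 60.4 and 43.6 CPM per kb. The other end of the transport class held Ift140 of the IFT-A complex at 1.43 CPM per kb. Spag7, in neither class, had the highest level of all 95 genes at 152 CPM per kb.

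The filter on low values, a mean of at least 1 CPM, kept 83 of the 95 genes. All 12 genes below it were motile: Dnah3, Dnah7b, Dnah7c, Dnah8, Dnah10, Dnah11, Dnah12, Dnah17, Spag17, Rsph6a, Tekt3 and Cfap99. Their mean levels were 0.392 to 0.970 CPM. Dnah3, for example, had 23 and 4 reads in the TCRb-/- libraries and 7 and 10 in the WT libraries, so differences between libraries are at the limit of counting there. Reads of a few genes could not be assigned with certainty. Rsph3a and Rsph3b share 74.03% and 73.43% of their 50-base stretches, and Dnah7a, Dnah7b and Dnah7c share between 30.32% and 38.83% in each pair. In addition, 13 of the 95 genes share exonic bases with another listed gene, and no source used here says whether counting used the strand.

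Promoter sequences are shown because Rfx3 and Foxj1, the regulators among these genes, act through short DNA motifs. RFX factors bind the X-box, whose half-site is GTTGCC, which reads GGCAAC on the other strand. Foxj1 binds the forkhead core TGTTTA, which reads TAAACA on the other strand. RefSeq promoters (build GRCm38.p6, 250 bases before to 50 after the first listed start) matched 80 of the 95 genes. The half-site occurred in 21 of 55 motile promoters (38.2%), in 8 of 19 transport promoters (42.1%) and in 1453 of 11303 promoters of other listed genes (12.9%). The forkhead core occurred in 13 of 55 motile promoters (23.6%), in 2 of 19 transport promoters (10.5%) and in 932 of 11303 others (8.25%). Over all 27025 promoters of the table the shares were 12.7% for the half-site and 13.4% for the forkhead core, so the transport share of the forkhead core lies between the 2 backgrounds. Only 2 motile promoters held both motifs, which share no end letters and so cannot overlap. A match is a description of the letters, not a measured binding site. The stretches below are 60 bases upstream of the start, 5′ to 3′ on the strand of the gene, with motif matches in capitals, and none of them touches an annotated GENCODE exon.
Ccdc153, chr9:44240498-44240557, + strand: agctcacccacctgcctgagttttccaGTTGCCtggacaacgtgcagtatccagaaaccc
Tekt1, chr11:72361883-72361942, - strand: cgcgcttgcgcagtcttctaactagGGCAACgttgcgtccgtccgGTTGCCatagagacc
Spag16, chr1:69826840-69826899, + strand: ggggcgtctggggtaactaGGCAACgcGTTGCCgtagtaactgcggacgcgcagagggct
Cfap20, chr8:95434931-95434990, - strand: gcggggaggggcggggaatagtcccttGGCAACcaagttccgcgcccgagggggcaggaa
Dnah7a, chr1:53706952-53707011, - strand: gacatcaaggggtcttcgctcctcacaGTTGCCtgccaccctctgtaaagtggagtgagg
Bbs7, chr3:36613478-36613537, - strand: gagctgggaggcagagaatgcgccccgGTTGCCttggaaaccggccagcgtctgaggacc
Ift140, chr17:25015950-25016009, + strand: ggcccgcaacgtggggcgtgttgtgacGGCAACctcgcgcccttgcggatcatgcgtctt
Tmem212, chr3:27896387-27896446, - strand: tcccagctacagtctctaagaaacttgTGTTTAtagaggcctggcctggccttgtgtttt
Dnah5, chr15:28203636-28203695, + strand: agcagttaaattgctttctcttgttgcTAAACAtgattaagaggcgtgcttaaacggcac
In Tekt1 and Spag16 the half-site occurs in both orientations within the window, whereas Ift140 and Bbs7 show that the transport genes carry it too.

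No cilium gene passed the test between genotypes, but the motile genes leaned towards TCRb-/- while the transport genes did not. The question is whether loss of the T cell receptor beta chain went with a different cilium programme in the septum. Of the 55 motile genes tested, 45 had a positive log2 difference (TCRb-/- minus WT, on log2(CPM + 1)), with a median of 0.15 and a range of -0.33 to 0.45. Of the 22 transport genes 11 were positive, with a median of -0.0033 and a range of -0.15 to 0.35. Over all 13912 genes tested, 6995 were positive and the median was 0.00069. In limma with genotype as the only term, 0 of 13912 genes (0%) had an adjusted p (Benjamini-Hochberg) under 0.05, and none of the 83 cilium genes did. Unadjusted p under 0.05 was found for 43 genes, none of them among the 83 cilium genes. In the further cilium lists below, Ccdc114 (unadjusted p = 0.0337 in limma) and Smo (0.0434) were among the 43. The voom alternative also called 0 genes. In both fits the spread within a genotype includes the difference between experiments. An exact permutation test of 2 against 2 libraries cannot go below p = 0.333.

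The median of the motile genes was above 0 in each experiment, at 0.16 in experiment 1 and 0.12 in experiment 2, with 41 and 36 of 55 genes higher in TCRb-/-. The transport medians were -0.022 and 0.0090. Motile genes that were higher in TCRb-/- in both experiments numbered 26 of 55 (47.3%), against 27.0% of all genes tested, and 4 (7.27%) were lower in both, against 24.5%. Of the transport genes 6 of 22 were higher in both experiments and 8 lower in both. Both TCRb-/- libraries lay above both WT libraries in 8 motile genes (14.5%), against 9.76% of all genes, and below both in 2 (3.64%), against 8.04%. For transport genes these counts were 1 of 22 each, Bbs12 above and Ift140 below.

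The size of the motile lean varied with the libraries included, most of all with WT replicate 1. That library was the lowest of the 4 in 35 of 55 motile genes (63.6%), in 5 of 22 transport genes (22.7%) and in 3256 of 13912 genes tested (23.4%). Without WT replicate 1 the motile median fell to 0.00958, and without TCRb-/- replicate 2 it was 0.0561. Without WT replicate 2 it was 0.238. Each of these fits leaves 1 genotype with 1 experiment only, so the difference between experiments enters the genotype difference. Between experiments the motile median was 0.203. Experiment 2 alone, which does not hold WT replicate 1, had a motile median of 0.12 by genotype. How much of the fall came from the experiment difference was not tested.

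**Figure D2:**
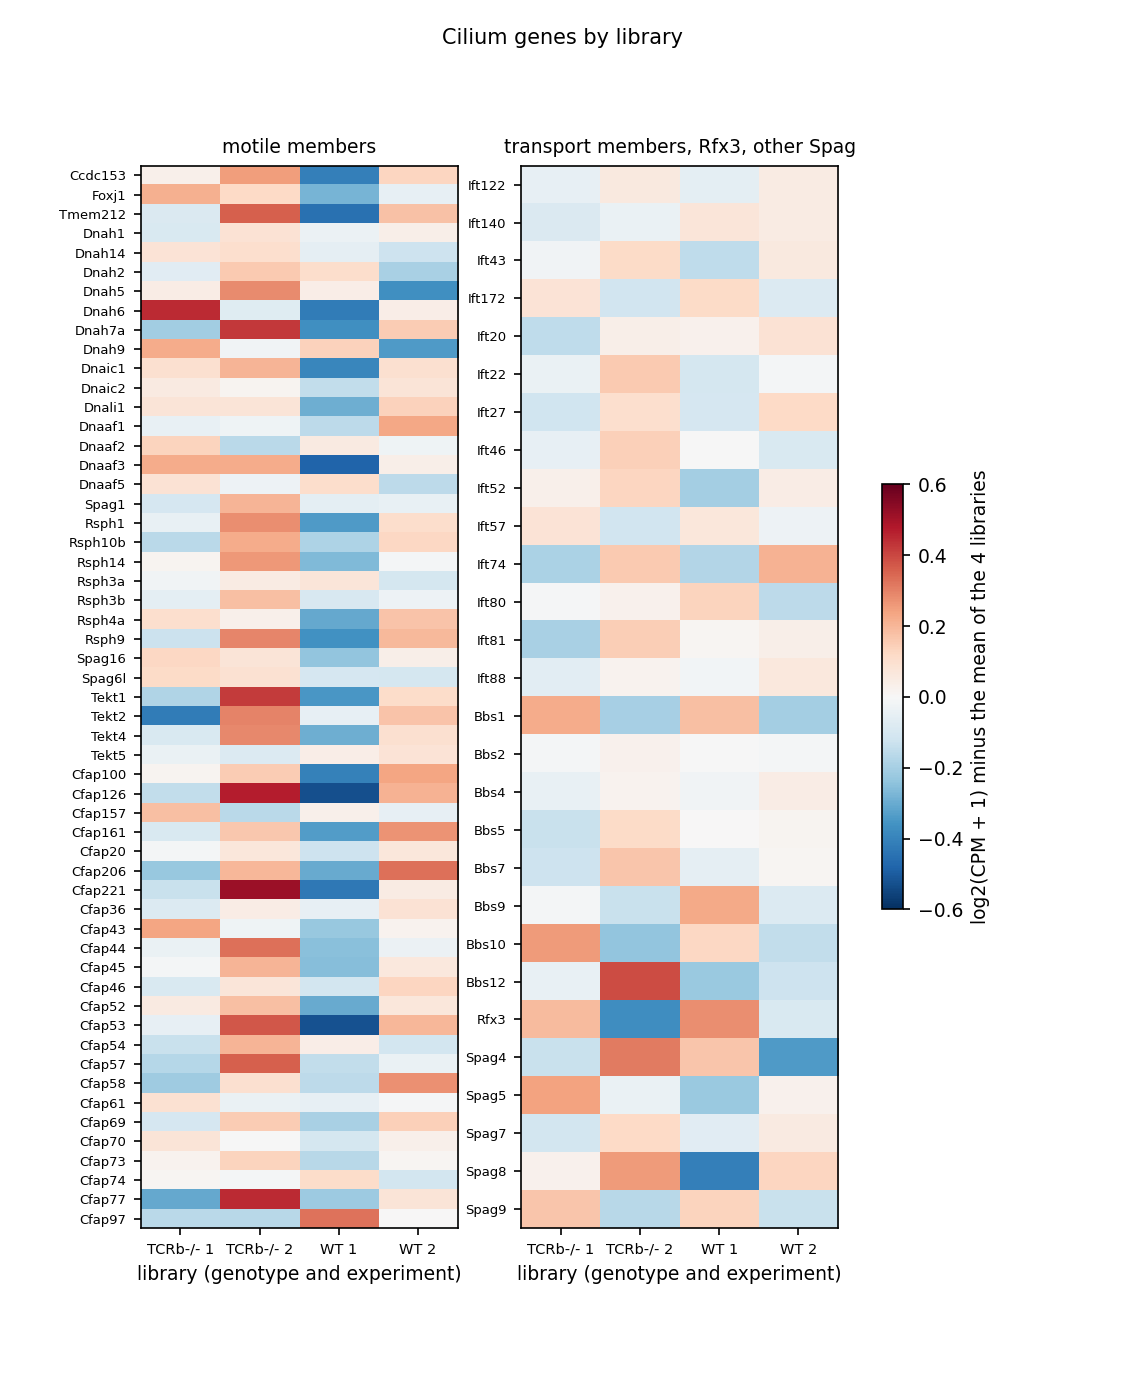
Level of each of the 83 tested genes in each library, as log2(CPM + 1) minus the gene's mean over the 4 libraries (color scale, -0.6 to 0.6). Left: the 55 motile genes. Right: the 22 transport genes, Rfx3 and 5 other Spag genes. WT 1 is the lowest library in 35 motile genes but in 5 transport genes.

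Foxj1 and the ependymal markers had their lowest level in WT replicate 1. Foxj1 (chr11:116330704-116335399, GRCm38) had 29.3 CPM in TCRb-/- replicate 1 and 27.4 CPM in replicate 2, against 20.6 and 24.3 CPM in the 2 WT libraries. Both TCRb-/- libraries thus lay above both WT libraries, with means of 28.4 ± 1.35 and 22.4 ± 2.60 CPM (SD, n = 2). The log2 difference was 0.33 ± 0.16 (SE), with an unadjusted p of 0.0881 and an adjusted p of 1.00 in limma. Ccdc153 was at 45.0 and 52.6 CPM in TCRb-/- and 32.9 and 48.3 CPM in WT, so the groups overlapped while each experiment had the higher value in TCRb-/-. Tmem212 followed the same order, with 8.70 and 12.2 CPM in TCRb-/- and 6.56 and 10.6 CPM in WT. Their log2 differences were 0.28 ± 0.22 and 0.27 ± 0.29 (SE). Without WT replicate 1 the difference was 0.215 for Foxj1, 0.0124 for Ccdc153 and -0.0407 for Tmem212. That fit sets TCRb-/- libraries of both experiments against the WT library of experiment 2.

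Axonemal dynein genes, the motor of the beat, were mostly positive without passing the test. Of the 10 axonemal dynein genes tested, 9 were positive, with a median log2 difference of 0.19. Dnah5, an outer arm heavy chain, was at 1.46 and 1.90 CPM in TCRb-/- and 1.45 and 0.850 CPM in WT, a difference of 0.33 ± 0.25 (SE) that lay almost wholly in experiment 2 (0.65, against 0.0085 in experiment 1) and was 0.13 without WT replicate 2. Dnah1, the most abundant heavy chain, was level at 21.4 and 24.3 CPM in TCRb-/- and 22.2 and 23.4 CPM in WT. Dnali1, a light intermediate chain of the inner arm, had 17.6 CPM in each TCRb-/- library, and 13.4 and 18.4 CPM in WT. Here only WT replicate 1 stood apart. Dnaaf3, one of the cytoplasmic factors that assemble dynein arms, was at 3.86 and 3.85 CPM in TCRb-/- and 1.98 and 3.27 CPM in WT. Its difference was 0.45 ± 0.25 (SE), and 0.19 without WT replicate 1. The better expressed assembly factors Dnaaf2 and Dnaaf5 had overlapping groups, with differences of -0.031 and 0.055.

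All 7 radial spoke genes tested were positive, with a median of 0.13. Rsph1 was at 48.2 and 60.5 CPM in TCRb-/- and 39.1 and 53.7 CPM in WT, and Rsph9 at 43.8 and 59.1 CPM against 37.1 and 55.1 CPM. In both genes the second experiment was above the first in either genotype, and the groups overlapped. Rsph14 did not overlap, with 4.68 and 5.70 CPM in TCRb-/- and 3.66 and 4.56 CPM in WT (difference 0.28 ± 0.21, SE, and 0.15 without WT replicate 1). Of the central apparatus genes Spag6l was at 27.2 and 26.8 CPM in TCRb-/- and 23.3 and 23.2 CPM in WT, the same gap in both experiments (0.21 and 0.20). Spag16 was at 8.18 and 7.85 CPM against 6.14 and 7.60 CPM.

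Tektins, the filaments inside the doublet microtubules, split evenly: 2 of the 4 tested were positive and 2 negative. Tekt5 was at 26.2 and 25.4 CPM in TCRb-/- and 27.8 and 28.6 CPM in WT, with no overlap and a difference of -0.12 ± 0.14 (SE). Tekt1 was at 11.4 and 17.9 CPM against 10.1 and 14.2 CPM. The Cfap family, a group named for its place in cilia and flagella rather than for 1 function, had 19 of 24 genes positive and a median of 0.073. The Cfap median was 0.15 in experiment 1 and 0.0028 in experiment 2, with 17 and 12 of the 24 genes higher in TCRb-/-. Its most abundant members barely differed, with 144 and 157 CPM in TCRb-/- and 147 and 161 CPM in WT for Cfap36, and 138 and 146 CPM against 128 and 146 CPM for Cfap20. Cfap97 went the other way, at 24.9 and 24.8 CPM in TCRb-/- and 35.3 and 28.0 CPM in WT. Its difference of -0.33 ± 0.17 (SE) had an adjusted p of 1.00 in limma, and it was -0.17 without WT replicate 1.

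Transport genes were close to equal between genotypes. Of the IFT-B complex 4 of 11 genes were positive, with a median of -0.031, and Ift74 was at 33.0 and 42.2 CPM in TCRb-/- and 33.2 and 43.7 CPM in WT. The BBSome had 3 of 6 genes positive and a median of -0.0016. Bbs4, its most abundant subunit, was at 148 and 154 CPM in TCRb-/- and 150 and 157 CPM in WT. In the IFT-A complex Ift122 was at 41.1 and 44.4 CPM against 40.8 and 44.0 CPM, while Ift140 lay below WT without overlap, at 10.3 and 10.7 CPM against 11.6 and 11.4 CPM (difference -0.12 ± 0.16, SE). Bbs12, a chaperonin-like factor that helps the BBSome assemble, was at 4.92 and 7.0 CPM in TCRb-/- and 4.23 and 4.61 CPM in WT (difference 0.35 ± 0.22, SE, and 0.13 without TCRb-/- replicate 2). Rfx3 was at 17.4 and 11.5 CPM in TCRb-/- and 18.6 and 14.1 CPM in WT, a difference of -0.18 ± 0.26 (SE). It was lower in TCRb-/- in each experiment (-0.089 in experiment 1 and -0.28 in experiment 2). The sign changed without TCRb-/- replicate 2 (0.0968) and without WT replicate 1 (0.000929), fits that leave 1 genotype with 1 experiment only.

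**Figure D3:**
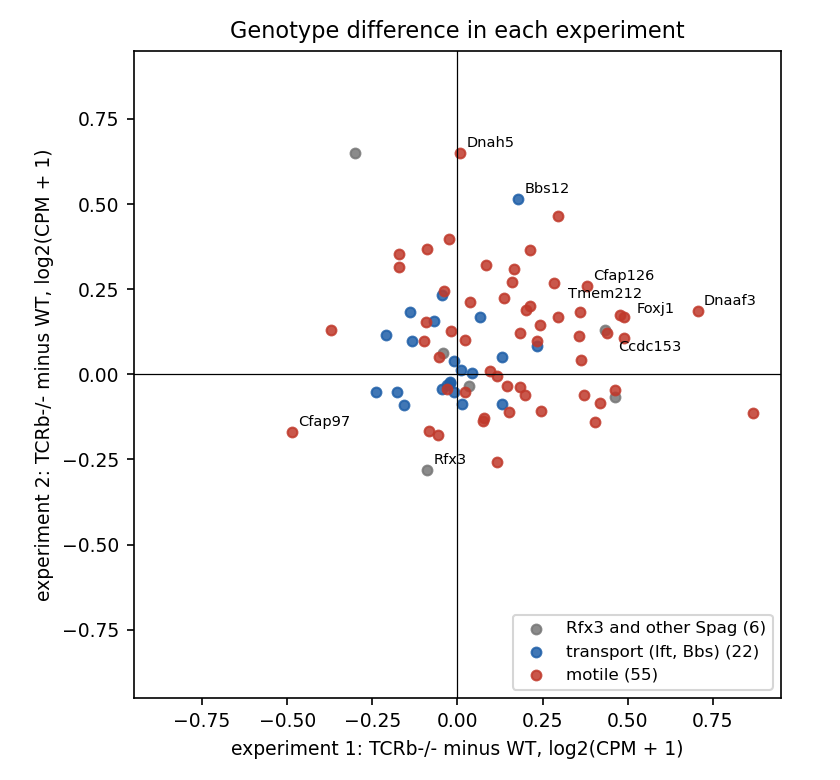
TCRb-/- minus WT difference in log2(CPM + 1) for each tested gene, in experiment 1 (x axis) and experiment 2 (y axis). Points are genes, colored by class, and lines mark 0. Among the motile genes 26 of 55 lie above 0 on both axes and 4 below 0 on both. The transport genes gather around 0.

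With the experiment as a replicate block, 2 of 13912 genes (0.0144%) passed an adjusted p of 0.05 in limma, and none of the 83 cilium genes did. Ttr, a marker of choroid plexus epithelium, was 1 of the 2 (limma adjusted p = 0.0323). All 20 choroid plexus markers of the list below had an unadjusted p under 0.05 in that limma fit. Before adjustment, 5 of the 83 had p under 0.05 in that limma fit, a share close to that of all genes (784, or 5.64%). They were Cfap97 (unadjusted p = 0.0181), Foxj1 (0.0202), Ccdc153 (0.0237), Rsph1 (0.0241) and Cfap126 (0.0427), all motile, and the limma adjusted p was 0.848 for each. Over all the settings tried for Foxj1, the limma adjusted p was between 0.848 and 1.00.

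Lists of choroid plexus and ependymal markers had the same order of libraries as the motile genes. The summed level of the 67 motile genes was 846 and 940 CPM in the TCRb-/- libraries (experiments 1 and 2) and 772 and 907 CPM in the WT libraries, so it ran from WT 1 through TCRb-/- 1 and WT 2 to TCRb-/- 2. The transport sum was 968 and 1038 CPM in TCRb-/- and 977 and 1006 CPM in WT. The ratio of the motile to the transport sum was 0.873 and 0.905 in TCRb-/-, and 0.790 and 0.902 in WT. Without Cfap20 and Cfap36 the motile sum was 564 and 637 CPM in TCRb-/- and 497 and 599 CPM in WT. Choroid plexus epithelium, which is itself multiciliated, was followed with 20 marker genes such as Ttr and Enpp2. Their sum was 2235 and 7092 CPM in TCRb-/- and 1366 and 4318 CPM in WT, the same order of libraries. All 20 of 20 were lowest in WT 1 and highest in TCRb-/- 2, and none was at 0 in any library. Their median difference was 0.55 in experiment 1 and 0.62 in experiment 2, against 0.16 and 0.12 for the motile genes. A list of 12 further ependymal markers, such as Clu and Nnat, summed to 1942 and 2296 CPM in TCRb-/- and 1723 and 2215 CPM in WT. Its levels reached 559 CPM per kb against a median of 12.0, so the sum follows its most abundant genes. Whether these genes are specific to ependymal cells was not tested, and Dynlrb2 is also in the list of other motile cilium genes. Of the 11 that passed the filter, 11 had a positive difference, with a median of 0.13. That median was 0.25 in experiment 1 and 0.035 in experiment 2, with 11 and 7 of the 11 higher in TCRb-/-. WT 1 was the lowest library in 8 of the 11. Markers of cells without motile cilia also differed in part. Of 14 astrocyte markers 11 were positive, with a median of 0.069, 5 (35.7%) lay above WT without overlap (9.76% of all genes), and 6 were lowest in WT 1. Their sum was 3409 and 3334 CPM in TCRb-/- and 3081 and 3146 CPM in WT. Of 12 pan-neuronal markers 11 were negative, with a median of -0.072, and their sum was 8438 and 9151 CPM in TCRb-/- and 9287 and 9201 CPM in WT. The part of these cell types in the motile values was not tested, and in bulk tissue more cells of a type and more RNA per cell cannot be told apart.

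**Figure D4:**
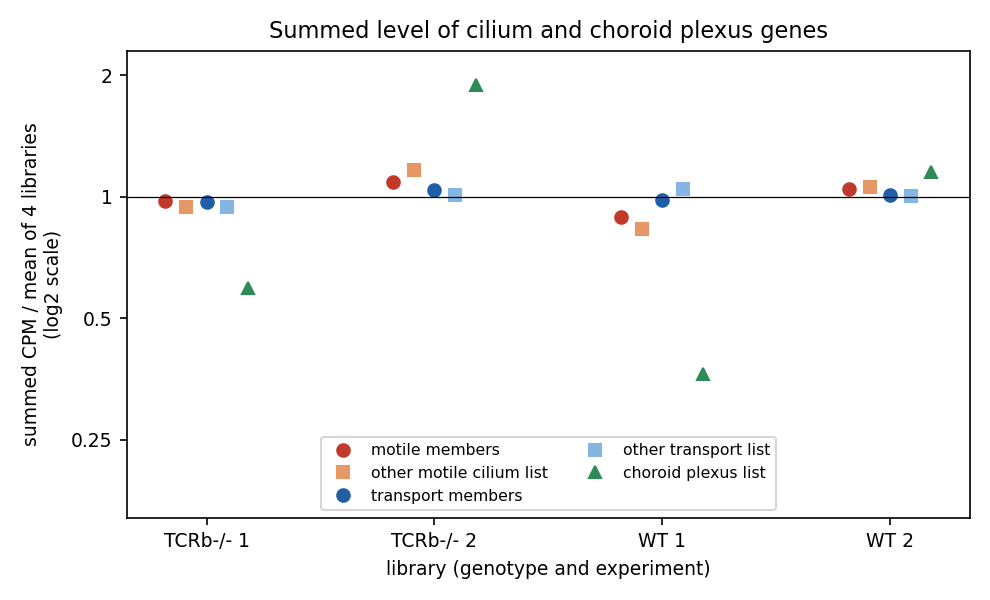
Summed CPM of each gene list in each library, divided by its mean over the 4 libraries, on a log2 axis. Circles are the motile and transport genes, squares are further genes of the same 2 kinds and triangles are choroid plexus markers. The choroid plexus sum runs from 1366 CPM in WT 1 to 7092 in TCRb-/- 2, and the motile sum from 772 to 940 CPM in the same libraries.

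Between the experiments, 11 of the 83 cilium genes (13.3%) were called, a smaller share than the 23.7% of all genes tested. Each of the 7 motile ones was higher in experiment 2. In limma with experiment as the only term, 1245 of 13912 genes (8.95%) were higher and 2047 (14.7%) lower in experiment 2. Of 55 motile genes 7 (12.7%) were higher and none lower. Of 22 transport genes 1 was higher and 1 lower, and Rfx3 and Spag9 were lower. The median difference (experiment 2 minus 1) was 0.20 for motile, 0.095 for transport and -0.030 for all genes. In motile genes it was 0.16 within TCRb-/- and 0.25 within WT. These calls depended on single libraries: 4 cilium genes were called without TCRb-/- replicate 1, 4 without TCRb-/- replicate 2, 2 without WT replicate 1 and 11 without WT replicate 2. No cilium gene was called when the variance was moderated without a trend. Brain region markers moved between the experiments as well, and striatum and thalamus markers also differed between genotypes within experiment 2. The striatum list summed to 4875 and 4384 CPM in experiment 1 (TCRb-/- and WT) and 1240 and 2811 CPM in experiment 2. The thalamus list summed to 794 and 788 CPM and then 1880 and 1283 CPM, and the cortex and hippocampus list to 1230 and 1234 CPM and then 645 and 751 CPM. By genotype (TCRb-/- minus WT) the striatum median log2 difference was 0.15 in experiment 1 and -1.16 in experiment 2. The thalamus median was -0.21 and 0.73. The part of the regions in the cilium values, by experiment or by genotype, was not tested.

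Cfap126, a protein of the ciliary microtubule wall known as Flattop, showed the largest of these changes. It was at 8.74 and 6.49 CPM in experiment 1 (TCRb-/- and WT) and 14.0 and 11.5 CPM in experiment 2, a log2 difference of 0.68 ± 0.17 (SE, limma adjusted p = 0.0278). Dnah7a, an inner arm heavy chain, went from 5.45 and 4.77 CPM to 9.01 and 7.29 CPM (0.58, limma adjusted p = 0.0377). Rsph9 went from 43.8 and 37.1 CPM to 59.1 and 55.1 CPM, with the lowest adjusted p of the motile genes (0.49, limma adjusted p = 0.0138). In each of these genes both libraries of experiment 2 lay above both of experiment 1. Tekt1 (0.53), Cfap206 (0.53), Cfap161 (0.43) and Rsph1 (0.38) also passed the test, with limma adjusted p between 0.0358 and 0.0459. Tmem212 (0.53, limma adjusted p = 0.0501) and Ccdc153 (0.38, 0.0838) did not, and passed with genotype as a second term (0.0266 and 0.0303). Foxj1 itself did not pass the test (0.067 ± 0.16, SE), and its sign changed without TCRb-/- replicate 2 or WT replicate 1.

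Among the transport genes the 2 calls went in opposite directions. Ift74, which binds tubulin cargo together with Ift81, went from 33.0 and 33.2 CPM in experiment 1 to 42.2 and 43.7 CPM in experiment 2 (0.37, limma adjusted p = 0.0185). Bbs1, a BBSome subunit, went from 48.8 and 47.3 CPM to 36.2 and 36.0 CPM (-0.40, limma adjusted p = 0.0130). Rfx3 went from 17.4 and 18.6 CPM to 11.5 and 14.1 CPM (-0.47, limma adjusted p = 0.0399). With quantile normalization Rfx3 did not pass the test (-0.37, limma adjusted p = 0.0798), and over all settings its limma adjusted p was between 0.00991 and 0.172. Spag9, a scaffold for kinase signalling and vesicle motors, went from 107 and 105 CPM to 84.8 and 86.9 CPM (-0.30, limma adjusted p = 0.0168). The experiment difference was lower in genes with longer exonic sequence. Across genes, Spearman's rho between exonic length and the experiment difference was -0.485 over the 83 cilium genes, -0.493 over the 55 motile genes and -0.458 over 13580 genes with a length. These genes share the same 4 libraries and are not independent. Dnah7a, with 12245 exonic bases, departed from that order.

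**Figure D5:**
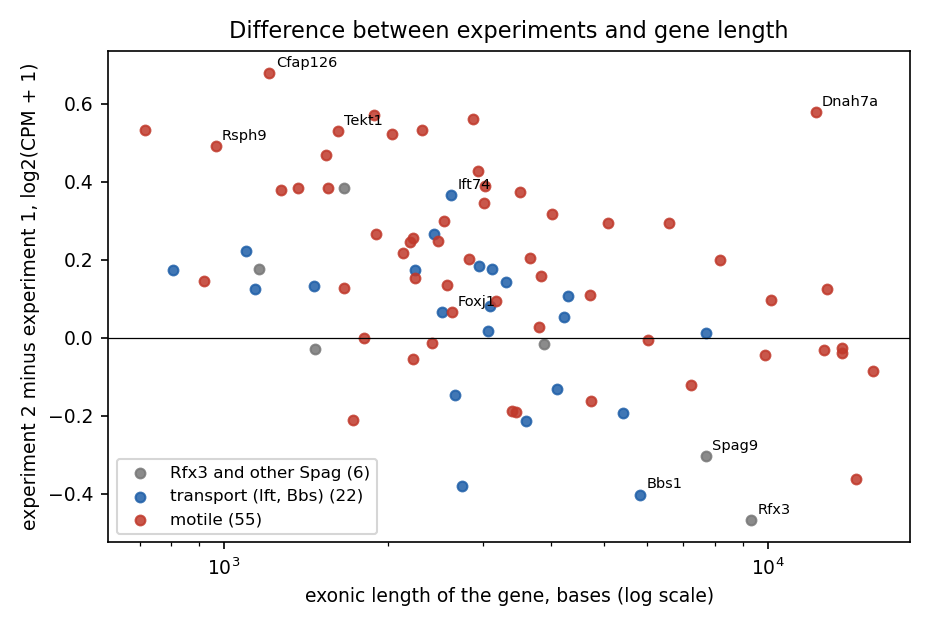
Difference between experiments in log2(CPM + 1) (y axis) against exonic length in bases (x axis, log scale) for the 83 tested genes, colored by class. Rfx3, Bbs1 and Spag9, with 9315, 5833 and 7703 exonic bases, lie at -0.47, -0.40 and -0.30, and Dnah7a, with 12245 bases, at 0.58.

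Further genes of the same structures showed the same division. A list of 71 other motile cilium genes had 65 tested, of which 51 had a positive genotype difference, with a median of 0.15 (0.20 in experiment 1 and 0.055 in experiment 2) and 0 called in limma. WT replicate 1 was the lowest library in 47 of the 65. Between experiments 10 of them (15.4%) were higher and none lower, against 8.95% and 14.7% of all genes, led by Stoml3 (0.64), Pifo (0.64) and Fam183b (0.62). Hydin, a central apparatus protein, lay below the filter at 0.610 and 1.15 CPM in TCRb-/- and 0.877 and 0.850 CPM in WT. Ccdc39 and Ccdc40, which set the spacing along the axoneme, were tested, and Ccdc39 was almost flat at 7.61 and 8.26 CPM against 7.90 and 7.92 CPM. Ccdc40 was at 12.9 and 10.7 CPM against 11.9 and 8.50 CPM. Among 20 regulators of multiciliation 15 were tested, with a median genotype difference of 0.086 and none called in either comparison in limma. Mcidas, which starts the multiciliate programme, was below the filter at 1.02 and 0.350 CPM against 0.839 and 0.492 CPM.

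Further transport genes and primary cilium membrane genes showed no lean towards TCRb-/-. Of 24 other IFT and BBSome genes 8 were positive, with a median of -0.033 and 0 called by genotype in limma. In both experiments 9 of the 24 (37.5%) were lower in TCRb-/-, against 24.5% of all genes tested. Higher in both were 3 (12.5%), against 27.0%. Between experiments Dync2li1 (0.40) and Arl6 (0.27) were higher and Kif17 (-0.77) and Kif3c (-0.48) lower, 4 of 24 genes (16.7%), against 8.95% higher and 14.7% lower over all genes. Kif3a, a kinesin motor of IFT, was at 138 and 196 CPM in TCRb-/- and 188 and 193 CPM in WT, so only TCRb-/- replicate 1 was low. Wdr19 of the IFT-A complex was at 13.3 and 14.8 CPM against 14.5 and 12.1 CPM. The 22 genes of the primary cilium membrane and its signalling had a median of -0.026, with 9 positive and 0 called by genotype in limma. Between experiments 4 of them (18.2%) were lower, near the 14.7% of all genes, and none was higher: Pkd1 (-0.78), Mchr1 (-0.63), Adcy3 (-0.41) and Rab23 (-0.28). Adcy3, the adenylyl cyclase of neuronal primary cilia, was at 43.0 and 33.3 CPM in TCRb-/- and 40.2 and 28.9 CPM in WT. Arl13b, a small GTPase of the ciliary membrane, was at 9.48 and 11.2 CPM against 12.5 and 11.8 CPM. The 28 transition zone and basal body genes had 16 positive and a median of 0.066 (0.040 in experiment 1 and 0.0013 in experiment 2), with 0 called by genotype. Both TCRb-/- libraries lay above both WT libraries in 5 of them (17.9%, against 9.76% of all genes). They lay below both in 3 (10.7%, against 8.04%). Between experiments Tmem237 (0.52) and Ahi1 (0.39) were higher and Fbf1 (-0.66) lower, 10.7% of the list.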

How the data were processed

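Septal RNA from 4 libraries was measured by RNA-seq on a HiSeq2500 after a SMARTer ultra-low input kit, per the labels' protocols. The submitters' processing notes name HISAT2 2.1.0, SAMtools 1.3, HTSeq 0.9.1, R 4.0.5, limma 3.46.0 and the build mm10, with no roles. The authors deposited log2 CPM values for 15409 genes, computed with an offset of 0.5 reads, and 100% of values gave whole reads within 0.01 reads. Each listed gene has at least 10 reads in 1 library. How low genes were removed is not given in the sources used here.

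From these, log2(CPM + 1) was tested with limma 3.58.1 in R 4.3.3 (moderated with a trend, two-sided, Benjamini-Hochberg over all 13912 genes that averaged 1 CPM or more, threshold 0.05). Before that, the genotype-only fit was tried on simulated counts. Those counts held no difference between experiments, unlike these data, and the other fits were not tried in this way. The libraries pair by experiment, a batch in the labels, and deviations of paired libraries correlated with 0.72. Alternatives were a replicate block, pseudocounts of 0.1 and 5 CPM, no filter or 10 CPM, other scalings, voom, no trend, and each library left out. P-values set a difference against the spread between pools of mice. In the genotype-only fit that spread includes the difference between experiments, and in the experiment-only fit that between genotypes. Exonic lengths are from GENCODE vM21. Named genes were Foxj1, Rfx3, Ccdc153, Tmem212, those past the threshold, the 2 most abundant per class, and the 5 largest differences without overlap in each direction. The genes, lists and tests were chosen with earlier results of these data known.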

Additional observations from a re-analysis of the deposited data

How the results depend on the processing

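Of 293 values recomputed under other settings with all libraries, 265 kept their direction and side of the threshold or moved little, and none changed sign. The motile median by genotype (0.153) was 0.0777 with a pseudocount of 5 CPM, 0.124 with no filter and 0.103 with a filter at 10 CPM. The motile median by experiment (0.203) was 0.125 with a pseudocount of 5 CPM, 0.129 with no filter and 0.264 with quantile normalization, which also gave a transport median of 0.157 (0.0949 otherwise). At 10 CPM Dnaaf3, Bbs12, Dnah5, Rsph14, Dnah7a, Cfap206 and Tmem212 have no value. Without a trend in the variance, 629 genes (3292 otherwise) and 0 cilium genes (11 otherwise) differed between experiments. With the experiment as a replicate block 2 genes differed by genotype, and no call changed among the cilium genes by genotype. With genotype as a second term 13 cilium genes and 3437 genes differed between experiments. Leaving out 1 library at a time gave 132 values, of which 8 changed sign, in 4 results: Foxj1 by experiment ranged from -0.178 to 0.311 (-0.0175 without TCRb-/- replicate 2), Rfx3 by genotype from -0.467 to 0.0968 (0.000929 without WT replicate 1), Tmem212 by genotype from -0.0407 to 0.582 and the transport median by genotype from -0.0239 to 0.0517. The same fits gave 1406 to 3390 genes and 2 to 11 cilium genes between experiments, 0 to 47 genes by genotype, and motile medians of 0.00958 to 0.238 by genotype and 0.136 to 0.305 by experiment. The causes were not tested. With 1 library left in an arm, that library is assumed to vary like the others. Such a fit is also unbalanced, so a genotype comparison mixes in the experiment difference and an experiment comparison the genotype difference. Depth limits the 12 genes below the filter, whose values rest on 4 to 35 reads.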
